A study of Mus musculus with 9 samples.

Results

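Insertion sites were compared between SHH medulloblastomas with and without tamoxifen in the mice whose Lazy Piggy transposon the authors' sample sheet places on chromosome 7. The animals were those with local chromosome 7 and a primary tumour in the sheet: 19 with tamoxifen (TAM+) and 10 without (TAM-), 29 of the 141 animals and control DNAs that the sheet names. They are called T1 to T19 and U1 to U10 here, in the order of the sheet's lanes. All carry the genotype labelled lazy_piggy. The sheet lists 18 to 233 days for the tamoxifen animals (median 69) and 0 days for the untreated ones, without saying what the days count. The sources used here do not give strain, sex, age, dose, the transposase alleles or the driver of the tumours. A further 90 animals, 53 with tamoxifen and 37 without, have chromosome 10 as donor and are used only to test whether a difference of arms is larger in one donor than in the other. The series was designed to find genes that maintain SHH medulloblastoma.

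A DNA transposon moves by cut and paste, and Sleeping Beauty (SB) elements tend to land near the place they leave, so the donor chromosome carries many insertions that reflect where the element started. Lazy Piggy joins SB and piggyBac (PB) sequence in 1 element. The SB transposase acts on the SB ends and the PB transposase on the PB ends, so that an element first spread by one enzyme can be moved again by the other. An insertion that lies in or near the same gene in many independent tumours marks a candidate cancer gene, except close to the donor site, where repeated hits also follow from short hops. Libraries of 3 kinds were made from the DNA of each tumour. IR libraries were amplified from the SB sequence, PB libraries from the PB sequence, and JX libraries from the boundary of both.

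The values are counts per insertion position, and a called site needed 10 counts or more, and no less than 1% of what the animal's top position had in that kind of library. Counts per animal were 959749 to 4844491 in IR with tamoxifen and 1492603 to 4099437 without. In JX they were 116754 to 1607699 with tamoxifen and 215856 to 826062 without, and in PB 10515 to 1719432 with tamoxifen and 6650 to 2274936 without. Counts per animal on the log10 scale had an adjusted p of 0.571 in each of the 3 kinds (two-sided permutation tests). The 9 sequencing lanes were unevenly filled: 6 lanes held both arms, with 11 animals with tamoxifen and 7 without, lanes 2 and 3 held only tamoxifen animals and lane 4 only untreated ones. Animals are the replicates, each tumour counted as 1 value.

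Some libraries stood apart. Animal T7, with tamoxifen, had no called site on chromosome 7 in any kind of library. Its IR library had 6 of 11 called sites on chromosome 10, among them its highest, in intron 17 of Otogl with 31.1% of the counts, and chromosome 7 held 0.587% of all its IR counts, 5.87% of its JX counts and 0.326% of its PB counts. The absence of called sites there goes against the donor chromosome the sheet lists for it. The PB libraries of T15, T17, T18 and U8 held 11387, 10515, 18038 and 6650 counts, the only ones under 20000. T17 and T18 had 53 of 149 and 36 of 139 called PB sites on chromosome 10. In JX, 294 of the 743 sites with tamoxifen (39.6%) and 244 of the 558 without (43.7%) were spread positions, at which at least 3 animals of the series had counts and none held over 50% of them. In lanes 4 and 6 to 9, a split made after seeing the data, spread positions were 283 of 515 JX sites with tamoxifen (7 animals) and 244 of 505 without (8 animals). In lanes 1, 2, 3 and 5 they were 11 of 228 with tamoxifen (12 animals) and 0 of 53 without (2 animals). In lanes 4 and 6 to 9, T13, T15 and T18 held 49, 132 and 99 of these positions, while T14, T16, T17 and T19 held 0 to 2 each. The untreated animals of these lanes held from 0 (U2) to 66 (U3). JX sites per arm therefore differ between lanes and also between animals of 1 lane. The part of the lanes in them was not tested beyond the lane-wise tests given below, which cannot take the lanes out.

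The first comparison asked whether tamoxifen tumours carried more or fewer insertion sites. In IR, called sites numbered 4 to 62 per animal with tamoxifen (median 12) and 4 to 70 without (median 14.5). The means were 18.2 ± 14.8 for tamoxifen animals (SD, n = 19) and 21.6 ± 20.1 for untreated ones (SD, n = 10), a difference of -3.39 sites with a permutation p of 0.626 (adjusted p 0.626 over IR, JX and PB). The ranges overlap over nearly their whole length, and without U1, the untreated animal with 70 sites, the difference turned to 1.99. In JX, the median was 15 sites with tamoxifen (range 4 to 224) and 42 without (2 to 146), with means of 39.1 ± 57.4 with tamoxifen and 55.8 ± 50.7 without (permutation p 0.460). In the 6 lanes with both arms, the JX difference was 6.47 sites on average, against -16.7 over all animals. In PB, the median was 10 sites with tamoxifen (3 to 149) and 18 without (5 to 54), while the means were 40.4 ± 51.7 with tamoxifen and 21.6 ± 14.8 without (permutation p 0.291). The PB mean rests on T15, T17 and T18, which had 147, 149 and 139 called sites from the fewest counts in their arm. Without the 4 libraries under 20000 counts, an alternative chosen after seeing the data, the difference in PB turned to -1.69 sites (permutation p 0.862).

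**Figure D1:**
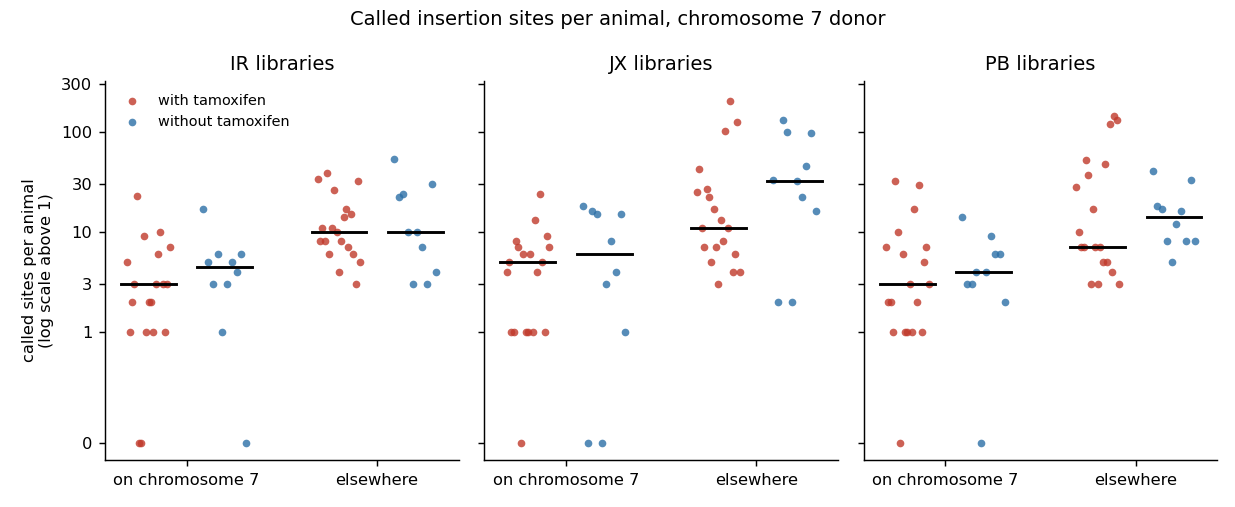
Called sites per animal (vertical axis, log scale above 1) on chromosome 7 and elsewhere in IR, JX and PB libraries, 1 point per animal with tamoxifen (red, left, n = 19) and without (blue, right, n = 10), with black lines at the medians. The arms overlap in every panel, and the 3 highest PB points elsewhere are tamoxifen animals.

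**Figure D2:**
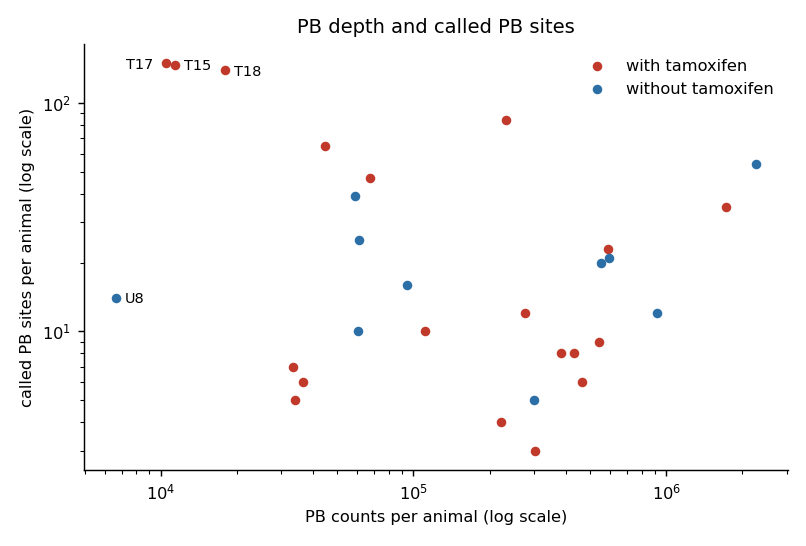
Called PB sites per animal (vertical axis, log scale) against PB counts per animal (horizontal axis, log scale), 1 point per animal, red with tamoxifen and blue without. T15, T17 and T18 combine over 100 called sites with fewer than 20000 counts, and U8 is the shallowest library of all with 14 sites.

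On chromosome 7 the arms overlapped as well. IR sites there numbered 0 to 23 per animal with tamoxifen (median 3) and 0 to 17 without (median 4.5), with means of 4.32 ± 5.37 with tamoxifen and 5 ± 4.67 without (permutation p 0.786). The JX means were 5.47 ± 5.67 with tamoxifen and 8 ± 7.30 without (permutation p 0.315), and the PB means were 6.84 ± 9.31 with tamoxifen and 5.10 ± 3.99 without (permutation p 0.614). Elsewhere in the genome, IR means were 13.9 ± 10.9 with tamoxifen and 16.6 ± 16.0 without (permutation p 0.606), JX means 33.6 ± 52.3 with tamoxifen and 47.8 ± 44.9 without (permutation p 0.484), and PB means 33.5 ± 46.3 with tamoxifen and 16.5 ± 11.5 without (permutation p 0.306). The share of called sites on chromosome 7 was 22.4 ± 16.0% with tamoxifen and 25.5 ± 16.3% without in IR, and 20.7 ± 11.9% with tamoxifen and 22.8 ± 12.6% without in PB (adjusted permutation p 0.667 for both). In JX it was 20.4 ± 16.1% with tamoxifen and 12.2 ± 11.1% without (permutation p 0.163, adjusted p 0.489). With the arms permuted within lanes the JX p was 0.291. Weighted by counts, chromosome 7 held 19.6 ± 18.004% of the counts in called IR sites with tamoxifen and 21.9 ± 16.4% without. The count shares were 18.97 ± 24.3% with tamoxifen and 12.3 ± 12.2% without in JX, and 20.1 ± 23.9% with tamoxifen and 17.9 ± 15.1% without in PB. The 3 adjusted p-values were 0.807 (permutation tests).

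The sites on chromosome 7 were densest in 1 megabase. The 1 Mb window hit in the most of the 29 animals lay at chromosome 7, positions 107000001 to 108000000 in mm9, and holds Rab6a, Plekhb1 and Fam168a as neighbours. It was chosen from these animals, so its counts are a description. Called IR sites in it were found in 9 of 19 animals with tamoxifen (47.4%) and 3 of 10 without (30%). In JX it was hit in 9 tamoxifen animals (47.4%) and 4 untreated ones (40%), and in PB in 9 tamoxifen animals (47.4%) and 6 untreated ones (60%). The share of tamoxifen animals is thus above that of untreated ones in IR and below it in PB. Of the animals with donor chromosome 10, 1 of 53 with tamoxifen and 0 of 37 without had an IR site there. A JX site there was found in 2 of them with tamoxifen and 2 without, and a PB site in 1 with tamoxifen and 1 without.

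The window held 19 of 82 chromosome 7 IR sites with tamoxifen (23.2%) and 5 of 50 without (10%). In JX it held 21 of 104 with tamoxifen (20.2%) and 7 of 80 without (8.75%), and in PB 24 of 130 with tamoxifen (18.5%) and 6 of 51 without (11.8%). The median distance from the centre of the window was 13.5 Mb with tamoxifen and 21.0 Mb without in IR, and 14.01 Mb with tamoxifen and 23.6 Mb without in JX. In PB the order was the other way round, with 19.8 Mb with tamoxifen and 14.3 Mb without. Sites over 20 Mb away made up 42.7% of the chromosome 7 IR sites with tamoxifen and 52% of those without. In PB they made up 50% with tamoxifen and 47.1% without, and in JX 43.3% with tamoxifen and 52.5% without. Single animals weigh heavily in these pooled values. T5 held 23 of the 82 chromosome 7 IR sites with tamoxifen, and U1 held 17 of the 50 without. Sites of 1 animal are not independent, so these shares and distances were not tested. Several sites in the window were carried in IR by 4 animals with tamoxifen (up to 5 sites each) and 2 without (2 sites each), in JX by 7 with tamoxifen and 2 without, and in PB by 6 with tamoxifen and 0 without.

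**Figure D3:**
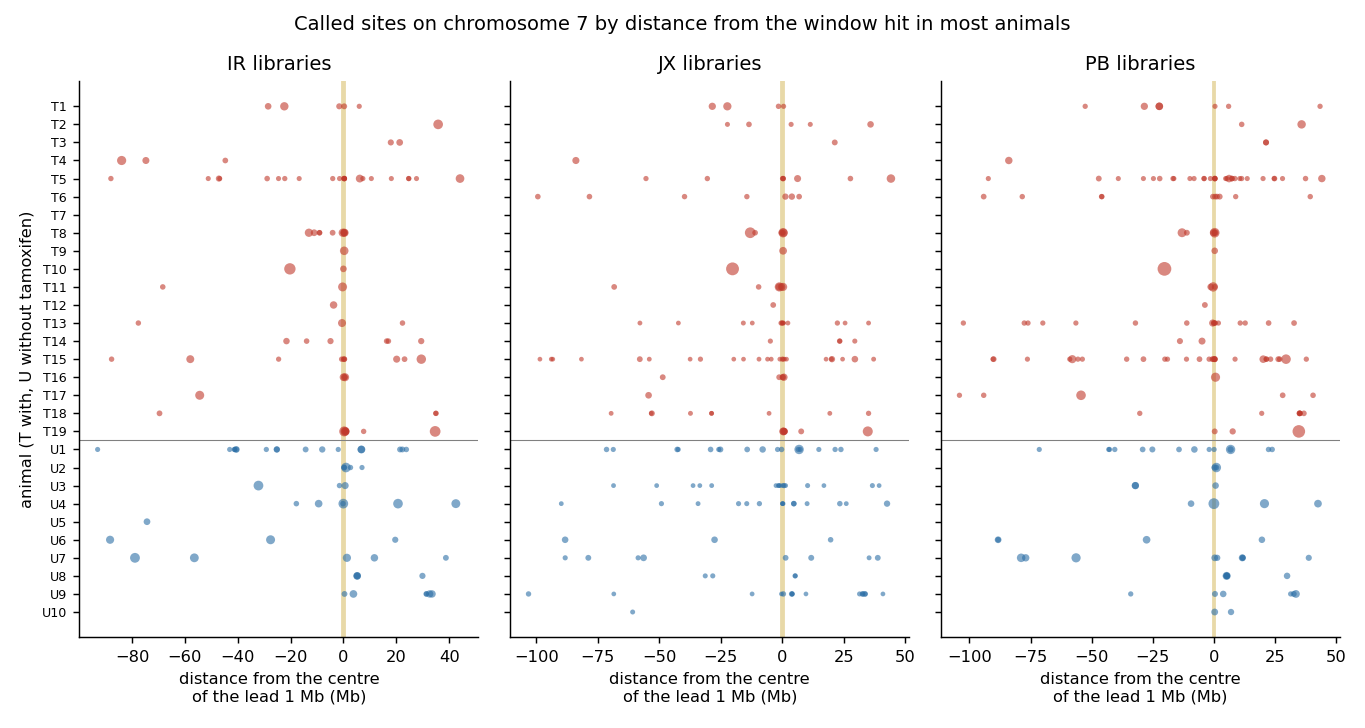
Called sites on chromosome 7, by distance in Mb from the centre of the 1 Mb window hit in the most animals (shaded), for IR, JX and PB libraries. Each row is an animal, red and above with tamoxifen and blue and below without, and larger points hold a larger share of the animal's counts. T7 has no point, and the shaded window holds sites in 9 of the 19 tamoxifen rows in each panel.

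Plekhb1, which encodes a membrane protein with a pleckstrin homology domain, was the gene of this window with the largest gap between the arms. Called IR sites lay in or beside it in T1, T5, T8, T15 and T19 and in no untreated animal (5 of 19, 26.3%, against 0 of 10; Fisher's exact p 0.134, adjusted p 0.535 over 4 genes). JX sites lay there in 6 tamoxifen animals, T8, T11, T13, T15, T16 and T19 (31.6%), and in 0 of the 10 untreated ones (Fisher's exact p 0.0676, adjusted p 0.676 over 10 genes). PB sites were found in 5 tamoxifen animals and in 1 without, U7, where the site in intron 2 held 1.79% of the PB counts. These gaps depend on the site call, on how shared sites are credited and on the gene listed for a site. With sites called at 0.1% of the highest, Plekhb1 was hit in JX in 12 animals with tamoxifen and 6 without (Fisher's exact p 1), in IR in 10 with tamoxifen and 2 without (p 0.126), and in PB in 10 with tamoxifen and 1 without (p 0.0436, adjusted p 1). With every animal keeping its called sites, JX hits were in 6 with tamoxifen and 2 without, and with the left end only, IR hits were in 2 with tamoxifen and 1 without. The largest Plekhb1 site in IR was that of T19, at position 107793982 in intron 6, with 17.03% of the IR counts, 4.26% of the JX counts and, just beside it, 0.613% of the PB counts. In JX the largest was that of T11, at position 107797750 in intron 5 with 5.82% of the counts, and in PB that of the untreated U7. The other IR sites were small: the T1 site held 0.594%, the T8 site 1.22%, the T15 site 0.533% and the 3 sites of T5 0.193% to 0.291%. Sites ran from intron 6, near the 3' end of the gene, to position 107845109 before its start, and both orientations occurred in IR. Over any kind of library 8 of 19 tamoxifen animals (42.1%) and 1 of 10 without (10%) had a Plekhb1 site, with a Fisher's exact p of 0.107 and an adjusted p of 0.888 over 24 genes. In the lanes that held both arms, the hit animals were 5 of 11 with tamoxifen and 1 of 7 without. With only gene bodies counted, the IR hits were 3 with tamoxifen and 0 without. Stretches of 100 kb, drawn without regard to genes, gave smaller gaps here. Positions 107700001 to 107800000 were hit in IR in 4 tamoxifen animals and 1 untreated one, and in JX in 6 and 2 (Fisher's exact p 0.675). Positions 107800001 to 107900000 were hit in 4 and 1 in IR and in 3 and 1 in JX. Positions 107900001 to 108000000, with Fam168a sites, were hit in 4 and 0 in IR and in 5 and 0 in JX.

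Fam168a and Rab6a flank Plekhb1. Fam168a had IR sites in T5, T8, T15 and T19 with tamoxifen and in U9 without, and JX and PB sites each in 5 animals with tamoxifen and 1 without (Fisher's exact p 0.633 in each kind). Its largest site, in intron 2 in T8, held 5.66% of the IR, 5.66% of the JX and 2.55% of the PB counts, and the site of U9 held 0.571%, 0.300% and 0.709% of them. Rab6a, which encodes a small GTPase of Golgi transport, showed no such gap. It had IR sites in 3 animals with tamoxifen and 1 without, JX sites in 3 with tamoxifen and 2 without, and PB sites in 2 with tamoxifen and 2 without (adjusted p 1, 1 and 0.633 by Fisher's exact test). Over any kind of library Rab6a was hit in 3 of 19 with tamoxifen (15.8%) and 4 of 10 without (40%). All 3 tamoxifen animals carried it just past its 3' end, T8 at 107790925 with 4.16% of the IR and 12.4% of the JX counts, T9 at 107791626 with 7.65% and 4.22%, and T5 at 107790734 with 0.222% and 0.304%. The untreated U2, U3, U4 and U10 had sites in intron 7, exon 8 or past the 3' end, of 0.0257% to 1.998% of the counts of their libraries. C2cd3, whose product builds the distal end of centrioles and is needed for cilia, was hit in 3 tamoxifen animals and 2 untreated ones over any kind of library, the largest being an intron 2 site in T16 with 3.95% of the IR counts.

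Further along chromosome 7, Odz4 (Tenm4 in current naming), a teneurin adhesion protein of neurons, had IR sites in T5, T8 and T12 and in no untreated animal (Fisher's exact p 0.532, adjusted p 0.844). The T12 site in intron 5 held 3.42% of the IR counts and the others 0.166% and 0.502%. Tmem135, which encodes a membrane protein of mitochondria and peroxisomes, had PB sites in T8, T13 and T15 and in no untreated animal (Fisher's exact p 0.532). Dlg2, a synaptic scaffold gene, was hit in 2 animals with tamoxifen and 2 without over any kind of library. Igf1r, the receptor of insulin-like growth factor 1, carried the highest IR site of the untreated U3, in intron 15 with 15.0% of the counts, and in T13 a PB site of 0.266%.

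No gene passed the test between arms. Fisher's exact test ran on genes hit in 3 animals or more, of which IR had 4, JX 10 and PB 4. At an adjusted p of 0.05, 0 genes passed (0% of those tested in each kind), and 0 had an unadjusted p under 0.05. The second count of 0 rests on these few genes. With sites called at 0.1% of the highest, 13 of 192 JX genes, 1 of 118 PB genes and 0 of 79 IR genes had an unadjusted p under 0.05, and with every animal keeping its called sites 139 of 570 JX genes did (lowest adjusted p 0.189, Fisher's exact test). The last setting counts a shared position in every animal that called it. Spread JX positions lay mostly in lanes 4 and 6 to 9, which held 7 tamoxifen animals and 8 untreated ones. The part of the lanes in the 139 genes was not tested. The sizes of the arms set what the test could show. A gene hit in tamoxifen animals alone needed 8 of them for an unadjusted p under 0.05 (0.0265), and one hit in untreated animals alone needed 3 (0.0328). Hits in 1 arm alone were frequent. With 19 and 10 animals, 2 animals drawn at random are more often both with tamoxifen than both without. The shares below are therefore no result about the genes, and how far they differ from such a draw was not tested. Of genes hit in at least 2 animals, 7 of 17 in IR (41.2%), 24 of 64 in JX (37.5%) and 28 of 51 in PB (54.9%) had all hits with tamoxifen. All hits were without tamoxifen for 2 of the genes in IR (11.8%), 9 of those in JX (14.1%) and 4 of those in PB (7.84%). Plekhb1 in IR and JX and Odz4 in IR belong to the first set, beside many genes hit in 2 animals.

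Elsewhere in the genome, hits were scattered. In IR 304 genes off chromosome 7 had a called site, 11 of them in 2 animals and 0 in more, against 85 genes on chromosome 7 with 6 hit in at least 2 animals and 4 in at least 3. In JX 6 and in PB 0 genes off chromosome 7 reached 3 animals. Myo10, an unconventional myosin of filopodia, was hit in T10 and T12 in all 3 kinds of library and in no untreated animal. The T10 site, in intron 32 at chromosome 15 position 25730277, held 23.2% of the IR and 5.49% of the JX counts, and the T12 site, past the 3' end, held 8.54% and 1.35%. Gm12824, a predicted gene of chromosome 4, was hit in T12 with 17.4% and in T13 with 0.353% of the IR counts. Dner, which encodes a neuronal transmembrane protein with EGF-like repeats, was hit in T1 and T3, at most 2.16% of the IR counts. Prkg1, a cGMP-dependent kinase, held 20.8% of the IR counts of T6 with a site in intron 5, and a PB site of 31 counts in T18.

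Some repeated genes had hits in untreated animals alone, and others in both arms. Prickle2, a planar cell polarity gene, had IR sites in U3 and U5 and in no tamoxifen animal. The U5 site lay in exon 8 at chromosome 6 position 92325552 and held 55.8% of the IR counts, and the U3 site in intron 7 held 7.60%. Cacna1e, a voltage-gated calcium channel gene, had IR sites in U2 (6.26%) and U4 (0.877%). Pde4d, a phosphodiesterase that degrades cyclic AMP, was hit over any kind of library in 3 of 10 untreated animals, U4, U7 and U9, and in 0 of 19 with tamoxifen (Fisher's exact p 0.0328, adjusted p 0.788). Its U4 site in intron 3 held 4.06% of the IR counts, while the U9 site was a spread JX position with 51 counts. Adcy2, an adenylyl cyclase gene, had JX sites in 1 animal with tamoxifen, at 0.0659%, and in 2 without, at 4.36% in U1 and 0.0729% in U9 (Fisher's exact p 0.267). Rbfox1, a splicing regulator of neurons, was hit in JX in 2 tamoxifen animals and 2 untreated ones, with 3 of these 4 sites at spread positions. With every animal keeping its called sites, it was hit in JX in 3 tamoxifen animals and 7 untreated ones (Fisher's exact p 0.0108, adjusted p 0.189 over 570 genes). Cntn5, a neuronal adhesion gene, had JX sites in T11, T15 and U3, and the U3 site held 50 counts.

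**Figure D4:**
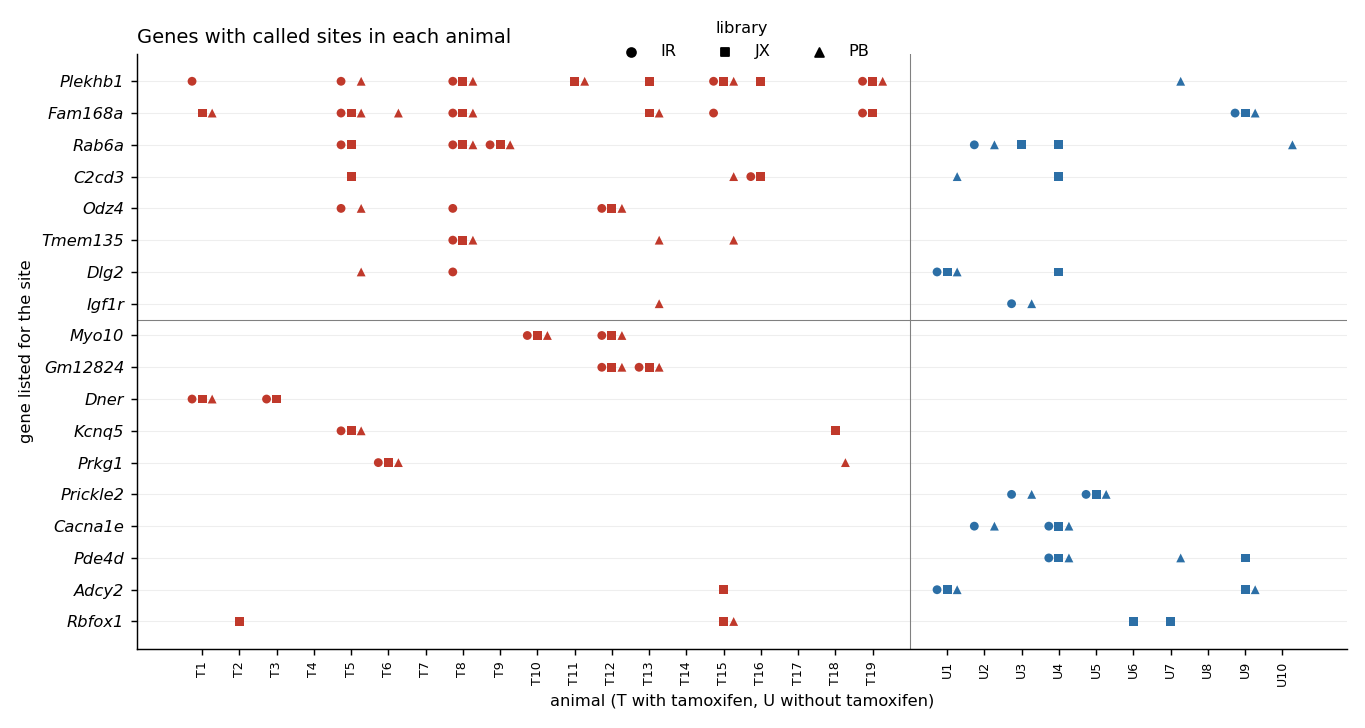
Genes listed for called sites (rows, chromosome 7 above the horizontal line) in each animal (columns, red and left with tamoxifen, blue and right without), with a circle for IR, a square for JX and a triangle for PB. Plekhb1 has symbols in 8 tamoxifen animals and 1 untreated animal, Rab6a in 3 tamoxifen animals and 4 untreated ones, and Prickle2, Cacna1e and Pde4d in untreated animals alone.

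Gene lists were read as counts against all genes, of which 1.74% had a called IR site, 4.06% a JX site and 2.99% a PB site, and 0 members of any list passed the test. Of 95 potassium channel genes, 5 were hit in IR, in 3 animals with tamoxifen and 1 without. In JX 9 were hit, in 5 animals with tamoxifen and 3 without, with 4 of the 10 sites at spread positions, and in PB 7 were hit, in 4 tamoxifen animals and 0 untreated ones. Kcnk2, a leak channel gene, held 4.81% of the IR counts of T12. Kcnc2 held 13.5% of the JX counts of the untreated U2 and had no called IR site in it. Kcnb2 had 1 spread JX position in T15, with 60 counts. The PB sites of this list in T15 and T17 come from the shallow libraries.

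Of 22 SHH pathway genes, Gli3 and Hhip were hit, both in T18 in all 3 kinds of library, and Ptch1, the receptor that restrains the pathway, had no called site in any animal. These 2 were named after their values were seen. Gli3, a transcription factor that acts largely as a repressor, had a site past its 3' end with 1.02% of the IR counts, and Hhip, which binds and sequesters the ligand, one in intron 4 with 1.18%. None of the 24 granule neuron lineage, 31 chromatin and 23 cell cycle genes had an IR site in either arm. At the share of 1.74% over all genes, lists of this size can hold 0 such genes, so this is no result about them. Of 27 growth signalling genes, 3 had IR sites, Ntrk3 in T5 with tamoxifen and Igf1r and Fgfr2 in U3 and U8 without. All 3 lie on chromosome 7, the donor chromosome, so they cannot be set against the share over all genes. Of 28 synaptic adhesion and very long genes, 8 were hit in IR (28.6%), in 5 animals with tamoxifen and 2 without, 12 in JX, in 7 with tamoxifen and 5 without, and 10 in PB, in 7 with tamoxifen and 1 without. Of 28 calcium, sodium and chloride channel genes, 3 were hit in IR, in 1 animal with tamoxifen and 2 without. Tcf4, the only member of the mouse SHH model list with IR or PB sites, had them in U9 and a PB site in T17. Sfi1, 1 of 3 loci open to wrong mapping, had an IR site in T15 with 6.001% of the counts. In JX, Sfi1 was hit in T1, T15 and the untreated U4, where the site held 51 counts. Another of these loci, En2, held 29.3% of the PB counts of T2 at a spread position in intron 1, which is the highest PB site of that animal. With spread positions left out, the highest PB site averaged 34.1% with tamoxifen and 32.6% without (permutation p 0.870). In JX and PB, the genes of the lists that follow were hit in 1 or 2 animals each. Of the 27 growth signalling genes, 3 were hit in JX and 3 in PB, with Igf1r in PB in T13 and U3. Those in PB were the same chromosome 7 genes as in IR. Of the 28 calcium, sodium and chloride channel genes, 7 were hit in JX and 4 in PB, with Cacna1e in PB in U2 and U4. In JX and PB, 6 and 0 of the 31 chromatin genes were hit, 1 and 2 of the 24 granule neuron genes, and 1 and 0 of the 23 cell cycle genes. Of the 20 genes of the mouse SHH model list, 4 were hit in JX, with Tcf4 in T13 and U9, and 4 of the 5 sites were at spread positions.

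The next comparison concerned the dominant insertion of each tumour. The highest IR site held 9.14% to 39.9% of the counts with tamoxifen (median 17.9%) and 4.66% to 64.6% without (median 17.8%). The means were 19.5 ± 8.82% with tamoxifen and 24.8 ± 19.9% without (permutation p 0.345, adjusted p 0.518). The medians are nearly equal, and the untreated range is wider at both ends, with U5 and U8 above and U1 and U9 below all tamoxifen animals. In JX the highest site held 21.5 ± 16.3% with tamoxifen and 13.4 ± 21.4% without (medians 17.01% with tamoxifen and 2.65% without, permutation p 0.263). In the 6 lanes with both arms, this JX difference was 3.99 percentage points on average, against 8.11 over all animals. In PB the highest site held 34.9 ± 23.1% with tamoxifen and 32.6 ± 22.5% without (permutation p 0.7996). The highest IR site lay on chromosome 7 in 4 of 19 animals with tamoxifen and in 3 of 10 without, and in a gene body in 7 animals with tamoxifen and 6 without. The same site was also the highest in JX in 7 tamoxifen animals and 3 untreated ones, in PB in 6 tamoxifen animals and 4 untreated ones, and in all 3 kinds in 5 tamoxifen animals and 2 untreated ones. Sites highest in all 3 kinds included one past the 3' end of Zfp710 in T10, with 31.5% of the IR, 55.6% of the JX and 74.7% of the PB counts, and one in intron 29 of Dock1 in T19, with 23.8%, 17.01% and 50.3%, both on chromosome 7. Among the untreated, the C1qtnf9 intron 1 site of U7 held 26.0%, 4.55% and 34.9%. In T5, T6, T15 and T18, all with tamoxifen, the highest IR site had no PB count within 100 bp.

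Since the element has SB and PB parts, a further comparison asked whether its parts were found together. An IR site counted as joined when JX counts of its own animal lay within 100 bp. Joined sites made up 72% to 100% of the IR sites with tamoxifen (median 100%) and 71.4% to 100% without (median 100%), with means of 97.8 ± 7.05% with tamoxifen and 96.0 ± 8.89% without (permutation p 0.601). On chromosome 7 the means were 96.3 ± 10.53% with tamoxifen (n = 17 animals with such a site) and 95.4 ± 9.42% without (n = 9; exact permutation p 0.898), and elsewhere 97.9 ± 6.61% with tamoxifen and 96.1 ± 10.4% without (permutation p 0.615). The highest IR site of all 29 animals had JX counts beside it. A PB site counted as away when no IR or JX count of the same animal lay within 100 bp. Such sites made up 0% to 91.8% of the PB sites with tamoxifen (median 33.3%) and 5.56% to 70% without (median 32.3%), with means of 34.7 ± 23.4% with tamoxifen and 31.7 ± 19.8% without (permutation p 0.731). On chromosome 7 the means were 38.8 ± 38.4% with tamoxifen (n = 18) and 41.4 ± 31.6% without (n = 9; exact permutation p 0.870), and elsewhere 34.5 ± 23.1% with tamoxifen and 30.6 ± 18.1% without (permutation p 0.652). The highest value, 91.8%, was that of T15, a shallow library. The level of this share is set by the distance: with 10 bp it was 94.4% with tamoxifen and 96.2% without, and with 1000 bp it was 12.4% with tamoxifen and 11.3% without (permutation p 0.885). By its definition, the share of PB sites away can only fall as the distance widens.

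By counts, the JX share at the IR sites moved with the lanes. JX counts within 100 bp of the called IR sites were 6.30% to 90.03% of an animal's JX counts with tamoxifen (median 49.4%) and 1.59% to 61.8% without (median 12.7%). In lanes 2 and 3, with tamoxifen animals alone, the medians were 63.7% and 68.5%, and in lane 4, with untreated animals alone, 10.1%. In lane 1 the values were 20.4% to 67.2% with tamoxifen and 51.0% without, and in lane 5 they were 69.7% with tamoxifen and 61.8% without. In lane 6 they were 6.75% to 10.6% with tamoxifen and 11.3% to 16.5% without, and in lane 8 9.98% to 19.9% with tamoxifen and 15.1% without. In lanes 7 and 9 the tamoxifen values, 6.30% and 46.0% in lane 7 and 44.6% in lane 9, were above those of the untreated animals of the same lanes, 1.59% in lane 7 and 11.3% in lane 9. PB counts at the called IR sites were 0.644% to 92.2% with tamoxifen (median 58.8%) and 10.6% to 85.7% without (median 61.7%).

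**Figure D5:**
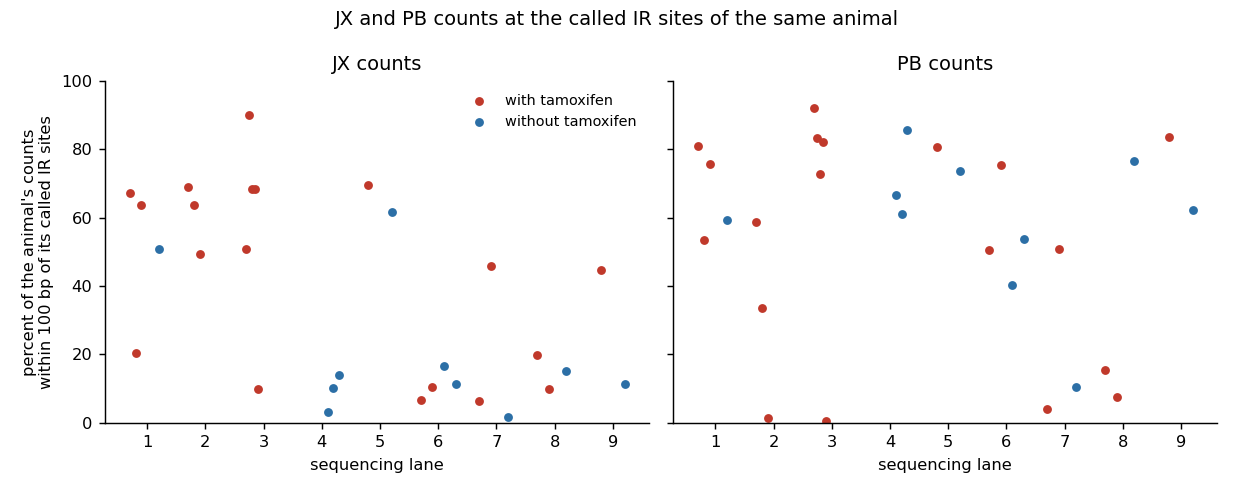
Percent of each animal's JX counts (left panel) and PB counts (right panel) within 100 bp of its called IR sites (vertical axis), by sequencing lane (horizontal axis), red and left with tamoxifen, blue and right without. JX values are 49.4% or higher in lanes 1, 2, 3 and 5 except in T2 and T11, and 19.9% or lower in the other lanes except in T16 and T19.

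Where sites lay relative to genes was compared last. The share of called sites inside gene bodies was 41.8 ± 20.8% with tamoxifen and 46.6 ± 20.9% without in IR (permutation p 0.555), 41.9 ± 15.6% with tamoxifen and 50.8 ± 18.5% without in JX (permutation p 0.186), and 47.1 ± 24.3% with tamoxifen and 52.0 ± 18.2% without in PB (permutation p 0.580). Introns held 36 of 82 chromosome 7 IR sites with tamoxifen (43.9%) and 21 of 50 without (42%), and elsewhere 115 of 264 with tamoxifen (43.6%) and 82 of 166 without (49.4%). Exons held 2 chromosome 7 sites with tamoxifen and 2 without, and 3 sites elsewhere with tamoxifen and 2 without. In PB the exon shares were 4.62% of chromosome 7 sites with tamoxifen and 5.88% without, and 4.24% of sites elsewhere with tamoxifen and 3.03% without.

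None of these 30 measures passed an adjusted p of 0.05, with the arms permuted over all animals or within lanes. Averaged over the lanes that held both arms, 9 of the 30 differences had the opposite sign to that over all animals. They were JX sites per animal, JX sites off chromosome 7 (7.17, against -14.2 over all animals), the highest PB site (-5.50 percentage points, against 2.29), IR counts on chromosome 7 (6.66 points, against -2.29), IR sites inside genes (5.96 points, against -4.83), the IR (1.11 points, against -3.13) and PB (0.509 points, against -2.05) shares of sites on chromosome 7, IR sites with JX counts on chromosome 7 (-1.33 points, against 0.904), and IR counts per animal (0.0109 on the log10 scale, against -0.0422). These signs are therefore not settled by the data. The difference of the tamoxifen effect between donors did not pass either, tested by permuting arms within each donor over 30 measures. The lowest p, 0.110 (adjusted p 0.787), was that of the share of JX sites on the donor chromosome, where the difference of arms was 8.18 percentage points with donor chromosome 7 and -2.37 points with donor chromosome 10. IR sites per animal with donor chromosome 10 averaged 19.6 ± 44.6 with tamoxifen and 14.1 ± 9.86 without. Without T7, whose sites go against the sheet, 1 mean difference changed sign, that of the highest PB site, and 0 measures and genes passed. A p above the threshold does not show that the arms are alike: with 19 and 10 animals, site counts that vary as much as their means and lanes unevenly shared, differences of the size seen here were within the spread between animals.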

How the data were processed

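Genomic DNA of tumours was sheared, joined to splinkerette adaptors, cut with BamHI and amplified, per the labels' protocols. The authors deposited counts per insertion position and library, whole numbers with no scaling, with a gene, a part of the gene and an orientation but no strand. Positions are in mm9, as the submitters' processing notes name it. The aligner, the counting and any filters were not given in the sources used. The samples deposited are 9 lanes, so animals were taken from the authors' sample sheet, and an animal's libraries of the same kind, from either end and any lane (2 of the 29 animals were in 2 lanes), were summed.

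Positions within 10 bp were merged, and where several animals had the same site it went to the one with the highest share of its counts there. A gene counts as hit when the table lists it for a called site, in the body or outside. Tests over animals permuted the arms (100000 resamples, exact with under 10 animals in an arm), adjusted by Benjamini-Hochberg over IR, JX and PB or over the 3 classes of site. Genes were tested with Fisher's exact test, adjusted over a kind of library. Lane-wise tests permuted the arms within each animal's lowest lane, with the difference of means over all animals as the statistic. Animals in lanes with 1 arm kept their arm in every permutation. The code was tested on simulated data. Python 3.11.15, numpy 2.4.6, pandas 2.3.3 and scipy 1.17.1 were used. The members, the 10 gene lists and the settings were chosen with earlier results of these data known.

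Named genes were the 4 on chromosome 7 and the 4 elsewhere hit in the most animals of each arm in each kind of library (at least 2), the 5 with the lowest p, up to 3 members of each list hit in at least 2 animals, and always Plekhb1, Fam168a, Rab6a, Odz4, Ptch1 and Kcnb2. Otogl, Zfp710, Dock1, C1qtnf9 and list members hit in 1 animal are named outside that rule, after their values were seen. A gene that the rule names is not reported here. Alternatives moved the site call, the merging, the crediting, the ends, the depth, the matching distance and the animals. No molecular identifiers were counted, so reads are not molecules and no counting interval is given. No sequence is printed, since no genome of this build was used here.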

Additional observations from a re-analysis of the deposited data

Results flagged for a closer look

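In 30 sets of values per arm with 4 to 10 animals, all of the untreated arm, 5 values lay apart from the rest by Dixon's test at its 95% critical value. Chance alone exceeds that value in about 5% of sets of normally distributed values. Site counts and percentages capped at 100% need not be so distributed, so the rate for these sets is not known. The measures share animals and sites, so the 5 are not separate findings. U1 had 70 called IR sites, against 36 in the next animal, and 17 IR sites on chromosome 7, against 6 in the next. U8 had JX counts beside 71.4% of its IR sites, against 93.75% in the next animal, and beside 66.7% of those off chromosome 7, against 95.8% in the next. U5 had 100% of its called JX sites inside genes, against 53.3% in the next animal, from 2 called JX sites. The tamoxifen arm, with 19 animals, was not tested for such values.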

How the results depend on the processing

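The 33 results on arms (30 measures and 3 counts of genes) were recomputed in 373 values under 20 alternatives. An adjusted p under 0.05 was reached by 0 of them, the lowest being 0.128, and 34 changed the sign of a difference and 3 came to 0. All differences below are with minus without tamoxifen. A site call at 0.1% of the highest site turned IR sites per animal to 90.6, on chromosome 7 to 10.01 and elsewhere to 80.6, IR sites inside genes to 3.36 percentage points, and IR sites with JX counts to -6.94, on chromosome 7 to -8.42 and elsewhere to -5.64 points. A call at 5% turned PB sites per animal to -2.07, on chromosome 7 to -0.984 and elsewhere to -1.09, PB sites away on chromosome 7 to 3.40 points, and the 3 shares of IR sites with JX counts to 0. A count minimum of 100 turned PB sites per animal to -3.18, on chromosome 7 to -0.279 and elsewhere to -2.90, the PB share on chromosome 7 to 0.0168 and PB sites away to -0.727 points. With the left end only, the highest IR site came to 4.80, IR counts on chromosome 7 to 5.06, IR sites inside genes to 2.06, IR sites with JX counts on chromosome 7 to -3.33, and the PB share on chromosome 7 to 0.648 points, and JX sites per animal to 3.88, elsewhere to 4.52. With every animal keeping its called sites, JX sites per animal kept their sign but came to -230.7 (178 with tamoxifen and 409 without, permutation p 0.0650, adjusted p 0.195), on chromosome 7 to -17.6 (unadjusted p 0.0488, adjusted p 0.146) and elsewhere to -213.1, and JX sites inside genes to -6.86 points (unadjusted p 0.0425, adjusted p 0.128). That setting counts a shared position in every animal that called it, and the part of the lanes in it was not tested. Requiring at least 10 JX counts gave -0.795 points for IR sites with JX counts on chromosome 7. With 10 bp as the distance for PB sites away, their share came to -1.84 points and elsewhere to -2.38. Without U1, IR sites per animal came to 1.99, on chromosome 7 to 0.649 and elsewhere to 1.34.

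Alternatives added after seeing the data also changed signs. Without T7 the highest PB site came to -0.329 points. Without the 4 shallow PB libraries, PB sites per animal came to -1.69, elsewhere to -2.26, the PB share on chromosome 7 to 2.31 points and PB sites away to -1.56 points. By construction the last setting leaves out the libraries with most PB sites. For the other changes the cause was not tested.

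Of the genes, the percent of animals hit changed sign for Rab6a in IR at a call of 0.1% (-8.42), with every animal keeping its called sites (-4.21), with gene bodies only (-10) and with the left end only (-4.74). Rab6a in JX came to 11.6 at 0.1%, 0.5263 at 5%, 15.8 at a count minimum of 100 and 5.79 with positions within 100 bp merged, and Rab6a in PB to 5.26 at 5%. Fam168a came to -13.2 in JX at 0.1% and -4.74 in IR with the left end only, C2cd3 in JX to -28.9 at 0.1% and -9.47 with the left end only, and Cntn5 in JX to -4.74 with gene bodies only. No paired analysis was possible because the animals carry no replicate numbers shared between arms. PB depth, down to 6650 counts, and 29 animals limit every comparison.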

Other observations

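The sheet also lists 3 control tumours with local chromosome 7, which entered no comparison. Their IR libraries had 0, 0 and 526 called sites from 3283156, 3559619 and 252920 counts. Their JX libraries had 18, 71 and 176 called sites and their PB libraries 9, 26 and 1, the last from 115 counts. A site shared with an animal of the series was credited to whichever held the higher share, which lowers the number of sites left to a control.

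The tamoxifen animals T17 and T18, with 53 and 36 called PB sites on chromosome 10, had other numbers there in their deeper libraries. Their IR libraries had 0 of 4 and 8 of 35 called sites on chromosome 10, and their JX libraries 0 of 7 and 10 of 135.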
